A study of Marchantia polymorpha with 9 samples.

Results

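The cell wall genes described here are 9 genes of the liverwort Marchantia polymorpha. They are the expansins MpExpansin4 (Mp1g22730), MpExpansin16 (Mp3g03970) and MpExpansin32 (Mp4g06560), the glycoside hydrolases MpGH16.17 (Mp3g10400), MpGH3.5 (Mp5g02880) and MpGH19.10 (Mp5g02110), and the glycosyltransferases MpGT47.17 (Mp7g03580), MpGT8.5 (Mp2g12520) and MpGT77.1 (Mp1g13560). They were taken by locus name, 9 of the 20574 genes in the tables, and all 9 passed the filter on low counts that left 14667 genes to be tested. The 9 genes had been selected on earlier values of the comparison between mutants and wild type, the fitted changes of the RNA counts. Ordered by the p-value of the mean of both mutants against wild type, MpExpansin32, MpExpansin16 and MpExpansin4 ranked 1, 2 and 3 of 28 tested expansins. MpGT47.17, MpGT77.1 and MpGT8.5 ranked 1, 2 and 3 of 79 tested glycosyltransferases, and MpGH3.5, MpGH16.17 and MpGH19.10 ranked 1, 3 and 4 of 107 tested glycoside hydrolases. Their differences from wild type are therefore given as a description, with no test.

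RNA was sequenced from entire thallus plants, the flat green body of the liverwort, at 3 weeks of age. The groups were the mutant Mpb-gata1-1, the mutant Mpb-gata1-2 and the wild type BoGa, with 3 libraries each, and every library pooled 3 plants. All were grown on half-strength Gamborg B5 medium at 22 °C under 16 h light and 8 h dark with 40 µmol m-2 s-1, without treatment. Each allele was represented by 1 line, so an effect of the allele and one of the line's background cannot be told apart, and the sources used here do not say whether the 3 libraries of a group came from separate cultures, so p-values measure the spread between pools.

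The plant cell wall is a network of cellulose, hemicelluloses, pectins and glycoproteins that has to loosen for a cell to grow. Expansins loosen it without cutting its polymers, glycoside hydrolases cut or rearrange its glucans and other glycans, and glycosyltransferases build its hemicelluloses, pectins and glycoprotein side chains in the Golgi. B-GATA factors are zinc finger transcription factors known in flowering plants for their part in greening and growth.

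The libraries held 24823337 to 44133919 gene reads, and 98.2% to 98.3% of each library's reads were unique to a gene. MpGATA4 (Mp7g03490), taken as the targeted B-GATA1 gene from knowledge of the study and not from the labels, had 246 to 255 CPM (read counts relative to library size, scaled by TMM) in Mpb-gata1-1, 279 to 287 CPM in Mpb-gata1-2 and 147 to 154 CPM in BoGa. A read count cannot show a small edit, so this level does not check the genotypes. Marchantia plants are male or female, and males carry the V chromosome. For 22 genes of that chromosome, each divided by its Mpb-gata1-2 mean, the median was 0.0206 ± 0.00419 in Mpb-gata1-1, 0.998 ± 0.0456 in Mpb-gata1-2 and 0.527 ± 0.157 in BoGa (SD, n = 3 each), with no overlap between groups. The genotype and the sex of the pooled plants therefore cannot be told apart between the mutants, nor for each mutant against BoGa. Of marker lists, the 3 genes taken for green thallus tissue were MpGUN4, MpCHLD and MpCHLI1/2-like. These are GUN4 and magnesium chelatase subunit genes, used as a stand-in for the tissue, whose amount was not measured. All 3 were lower in the mutants, and they summed to 499 to 528 CPM in Mpb-gata1-1, 484 to 503 CPM in Mpb-gata1-2 and 652 to 702 CPM in BoGa. The 4 gemma cup and gemma genes summed to 102 to 108, 123 to 130 and 78.0 to 100.2 CPM, the 2 rhizoid genes to 30.7 to 37.9, 29.0 to 33.7 and 26.5 to 28.4 CPM, and the 4 oil body genes to 25.6 to 30.3, 27.1 to 28.8 and 23.7 to 29.9 CPM in Mpb-gata1-1, Mpb-gata1-2 and BoGa. Of these, 3 gemma cup and gemma genes rose and 1 fell for the mean of both mutants, and 1 rhizoid gene rose. MpDUO1, the one sexual branch marker matched, was at 1.73 to 2.48 CPM over all 9 libraries, and every matched marker passed the filter on low counts. The part of these tissues in the results below was not tested, and in whole plants fewer cells of a type and less RNA per cell cannot be told apart.

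MpExpansin4 was higher in Mpb-gata1-1 than in both other groups. Its level was 84.8, 87.0 and 91.6 CPM in the Mpb-gata1-1 libraries, 48.9, 53.1 and 49.3 CPM in the Mpb-gata1-2 libraries and 44.6, 49.0 and 59.9 CPM in the BoGa libraries. Every Mpb-gata1-1 library lay above every other library, while Mpb-gata1-2 and BoGa overlapped. The fitted log2 change against BoGa was 0.78 ± 0.09 (SE) in Mpb-gata1-1 and -0.02 ± 0.10 in Mpb-gata1-2. Between the mutants the gene was higher in Mpb-gata1-1 by 0.80 ± 0.09 on the log2 scale (adjusted p = 0.000127, edgeR quasi-likelihood test with Benjamini-Hochberg adjustment over all tested genes). It lies on chromosome 1 at chr1:23362509-23365078 on the plus strand, in the coordinates of the deposited tables.

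MpExpansin16 (chr3:3933079-3935420, plus strand) was higher in both mutants. It was read at 20.8, 14.2 and 15.4 CPM in the Mpb-gata1-1 libraries, 13.2, 15.0 and 15.1 CPM in the Mpb-gata1-2 libraries and 8.66, 9.67 and 11.9 CPM in the BoGa libraries. All 6 mutant libraries were above all 3 BoGa libraries, and the mutants overlapped with each other. The log2 change against BoGa was 0.73 ± 0.15 in Mpb-gata1-1 and 0.52 ± 0.15 in Mpb-gata1-2 (SE). The difference between the mutants, 0.21 ± 0.15, did not pass the test (adjusted p = 0.320, edgeR).

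MpExpansin32 (chr4:7467953-7471692, minus strand) ran the other way. It had 13.1, 12.8 and 12.8 CPM in the Mpb-gata1-1 libraries, 12, 13.0 and 16.3 CPM in the Mpb-gata1-2 libraries and 22.1, 19 and 29.3 CPM in the BoGa libraries. The lowest BoGa library stood above the highest mutant library. BoGa averaged 1.82-fold the level of Mpb-gata1-1 and 1.70-fold that of Mpb-gata1-2, with log2 changes of -0.87 ± 0.16 and -0.76 ± 0.16 (SE). Between the mutants the change was -0.10 ± 0.16 and did not pass the test (adjusted p = 0.669, edgeR).

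**Figure D1:**
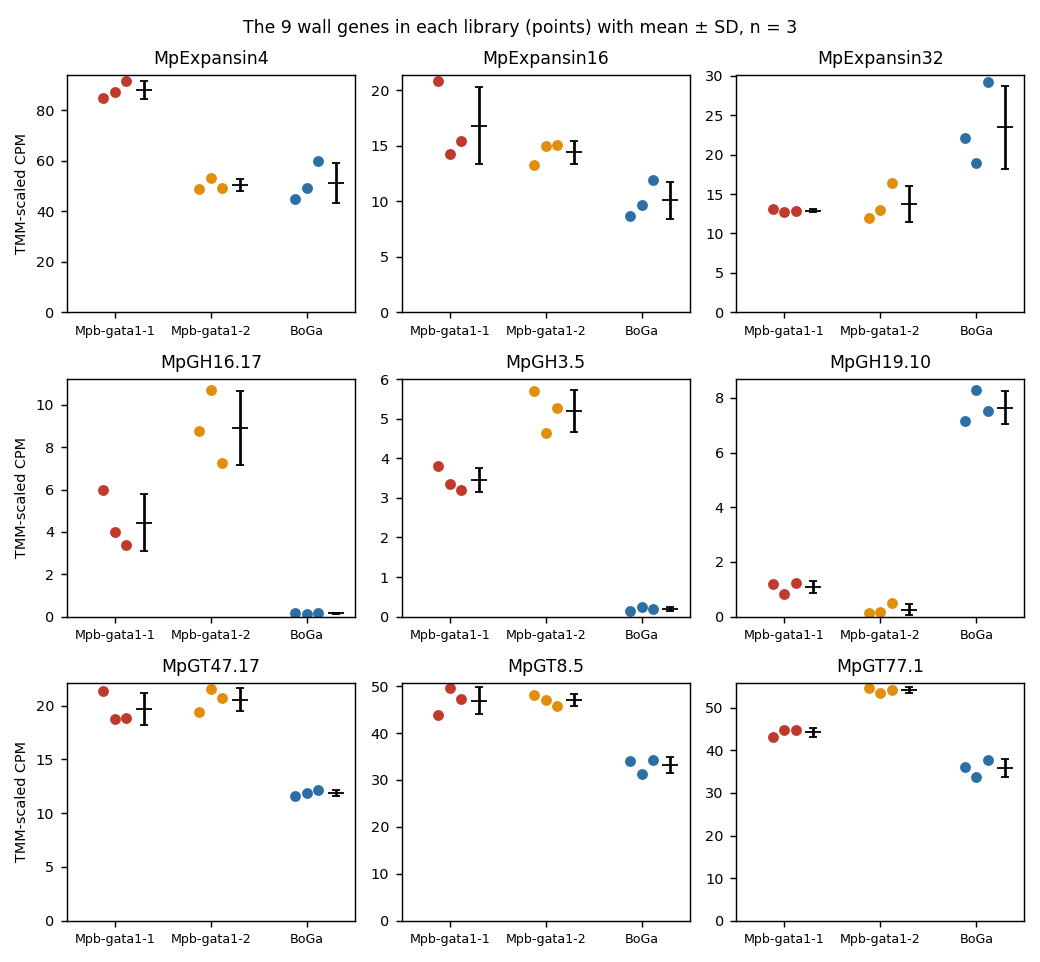
TMM-scaled CPM of the 9 wall genes (vertical axes, linear and starting at 0) in each of the 3 libraries of Mpb-gata1-1, Mpb-gata1-2 and BoGa (points), with the mean ± SD beside them. MpGH16.17 and MpGH3.5 are near 0 in BoGa, MpGH19.10 is highest in BoGa, and MpExpansin4 is the one gene of the 9 whose mutant libraries overlap with BoGa.

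The largest differences were in the hydrolases. MpGH16.17 belongs to family GH16, which in plants holds the xyloglucan endotransglucosylases and hydrolases that cut and rejoin hemicellulose chains. It was near the detection limit in BoGa, with 5, 4 and 7 reads in the 3 libraries, against 149, 136 and 152 reads in Mpb-gata1-1 and 234, 355 and 285 reads in Mpb-gata1-2. In CPM these were 5.96, 3.97 and 3.40 in the Mpb-gata1-1 libraries, 8.77, 10.7 and 7.24 in the Mpb-gata1-2 libraries and 0.149, 0.126 and 0.191 in the BoGa libraries. The 3 groups did not overlap, and the order was Mpb-gata1-2, Mpb-gata1-1, BoGa. The mean level was 28.6-fold that of BoGa in Mpb-gata1-1 and 57.3-fold in Mpb-gata1-2, with log2 changes of 4.77 ± 0.34 and 5.79 ± 0.32 (SE). Counting error alone, with only 16 BoGa reads in all, gives a 95% interval for the ratio of summed reads of 16.3 to 47.2 for Mpb-gata1-1 and 34.4 to 98.6 for Mpb-gata1-2. Between the mutants the change was -1.02 ± 0.21, lower in Mpb-gata1-1 (adjusted p = 0.00408, edgeR).

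MpGH3.5 (chr5:3416587-3421344, plus strand) had the same order of groups. Plant GH3 enzymes include beta-glucosidases and the beta-xylosidases and arabinofuranosidases that trim hemicelluloses. Its CPM values were 3.8, 3.36 and 3.20 in the Mpb-gata1-1 libraries, 5.70, 4.64 and 5.26 in the Mpb-gata1-2 libraries and 0.149, 0.251 and 0.191 in the BoGa libraries. They rest on 353 reads in Mpb-gata1-1, 513 reads in Mpb-gata1-2 and 20 reads in BoGa. No library of one group reached the range of another. Against BoGa the mean was 17.5-fold in Mpb-gata1-1 and 26.4-fold in Mpb-gata1-2, with 95% counting intervals of 11.0 to 28.7 and 16.9 to 43.5 for the ratio of summed reads, and the log2 changes were 4.10 ± 0.21 and 4.70 ± 0.21 (SE). The mutants differed by -0.60 ± 0.14 (adjusted p = 0.00987, edgeR).

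MpGH19.10 (chr5:2736084-2739707, minus strand) was the one hydrolase of the 3 that was lower in the mutants. GH19 is a family of chitinases, enzymes known for cutting the chitin of fungal walls. It had 30, 28 and 55 reads in the Mpb-gata1-1 libraries, 3, 5 and 20 reads in the Mpb-gata1-2 libraries and 239, 264 and 275 reads in the BoGa libraries. The CPM values were 1.20, 0.818 and 1.23 in the Mpb-gata1-1 libraries, 0.112, 0.151 and 0.508 in the Mpb-gata1-2 libraries and 7.14, 8.29 and 7.52 in the BoGa libraries, again with no overlap between any groups. BoGa had 7.07-fold the mean level of Mpb-gata1-1 and 29.7-fold that of Mpb-gata1-2, and the log2 changes were -2.82 ± 0.28 and -4.77 ± 0.34 (SE). Between the mutants it was higher in Mpb-gata1-1 by 1.95 ± 0.40 (adjusted p = 0.00404, edgeR). That value depended on 1 library and on the reads counted: it was 2.98 without Mpb-gata1-2 replicate 3, and 1.60 with unique reads only. Without that library the change of Mpb-gata1-2 against BoGa was -5.80. Only 41.5% of the reads of MpGH19.10 (381 of 919) were unique to it, against 100% for each of the other 8 genes. Its level is therefore uncertain by the shared reads, and where else these map is not known here. The unique reads alone were 12, 12 and 24 in the Mpb-gata1-1 libraries, 1, 4 and 10 in the Mpb-gata1-2 libraries and 95, 112 and 111 in the BoGa libraries, in the same order of groups.

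The 3 glycosyltransferases were higher in both mutants, by less than the hydrolases and with little spread. MpGT47.17 (chr7:4454506-4460215, plus strand) is of a family whose members in Arabidopsis add galactose to xyloglucan or extend the xylan backbone. Its levels were 21.3, 18.7 and 18.8 CPM in the Mpb-gata1-1 libraries, 19.4, 21.5 and 20.7 CPM in the Mpb-gata1-2 libraries and 11.6, 11.9 and 12.1 CPM in the BoGa libraries. The mutants overlapped with each other and stood apart from BoGa. The log2 change was 0.72 ± 0.08 in Mpb-gata1-1 and 0.79 ± 0.08 in Mpb-gata1-2 (SE), and the mutants differed by -0.07 ± 0.07, which did not pass the test (adjusted p = 0.524, edgeR). Its start overlaps the neighbouring gene Mp7g03570 on the other strand by 3 bp, and it is not stated whether the counting used strand. That neighbour was lower in both mutants.

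MpGT8.5 (chr2:12792770-12797770, minus strand) belongs to a family that holds pectin galacturonosyltransferases and galactinol synthases in flowering plants. It had 43.9, 49.6 and 47.2 CPM in the Mpb-gata1-1 libraries, 48.2, 47.1 and 45.8 CPM in the Mpb-gata1-2 libraries and 34.1, 31.2 and 34.2 CPM in the BoGa libraries. Both mutants stood above BoGa and covered the same range. Their log2 changes were 0.50 ± 0.06 each (SE), and the difference between them, -0.00 ± 0.06, did not pass the test (adjusted p = 0.972, edgeR) and took either sign under other scalings.

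MpGT77.1 (chr1:13581771-13589394, plus strand) differed in all 3 pairs of groups. GT77 enzymes in Arabidopsis include arabinosyltransferases of extensins, the structural glycoproteins of the wall. Its values were 43.1, 44.8 and 44.7 CPM in the Mpb-gata1-1 libraries, 54.7, 53.4 and 54.1 CPM in the Mpb-gata1-2 libraries and 36.2, 33.7 and 37.8 CPM in the BoGa libraries. No groups overlapped, and Mpb-gata1-1 lay between Mpb-gata1-2 and BoGa. Against BoGa the log2 change was 0.30 ± 0.06 in Mpb-gata1-1 and 0.59 ± 0.06 in Mpb-gata1-2 (SE), and the change between the mutants was -0.29 ± 0.06 (adjusted p = 0.00275, edgeR).

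Over the 9 genes, all 6 mutant libraries lay outside the BoGa range for 8, above it for 6 and below it for 2. The same held for 32.7% of all tested genes, but the choice of the 9 genes used this contrast, so nothing is read from that count. In the test itself, 48.8% of all genes passed for the mean of both mutants against BoGa, 46.0% for Mpb-gata1-1 against BoGa and 46.4% for Mpb-gata1-2 against BoGa. The 9 genes were picked on the contrast with BoGa, so the number of them that passed it is not read as a result. Family counts below include them, and the counts against BoGa from all 9 libraries are also given without them. Between the mutants, whose contrast is independent of that mean in the design but whose earlier results were also known, 5 of the 9 passed against 30.9% of all genes. MpExpansin4 and MpGH19.10 were higher in Mpb-gata1-1, and MpGH16.17, MpGH3.5 and MpGT77.1 were lower in it. These 5 genes also had no overlap between the mutants, as did 49.1% of all genes. The V level stood at opposite ends in the mutants, so sex and allele cannot be told apart in these 5 differences.

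**Figure D2:**
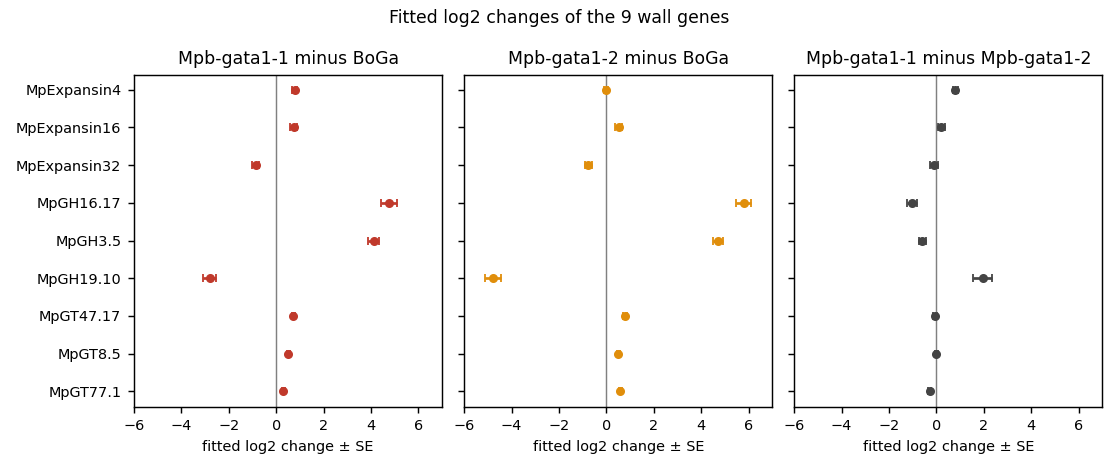
Fitted log2 changes ± SE of the 9 wall genes (rows) for each mutant minus BoGa and, at the right, for the difference Mpb-gata1-1 minus Mpb-gata1-2, all on 1 scale. The hydrolases reach 5.79 and -4.77 against BoGa while expansins and glycosyltransferases stay within 1, and MpGH19.10 has the widest difference between the mutants at 1.95.

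Levels can be set side by side between genes in the authors' TPM, which divides by the length of the gene from start to end, introns included. MpExpansin4 led in every group, with 108 ± 5.86 TPM in Mpb-gata1-1, 61.9 ± 1.97 TPM in Mpb-gata1-2 and 58.9 ± 8.07 TPM in BoGa (SD, n = 3 each), followed by MpGT8.5 with 29.7, 29.7 and 19.7 TPM. At the low end the order changed with genotype. MpGH19.10 was the least abundant in both mutants, at 0.942 TPM (Mpb-gata1-1) and 0.223 TPM (Mpb-gata1-2), but it ranked 6 of 9 in BoGa with 6.25 TPM. MpGH3.5 had 2.29 TPM in Mpb-gata1-1, 3.46 TPM in Mpb-gata1-2 and 0.123 TPM in BoGa, where it was the lowest of the 9. MpGH16.17 had 6.32, 12.7 and 0.208 TPM in the same groups. Some neighbours in the order had overlapping library ranges: MpGT8.5 and MpExpansin16, and MpExpansin32 and MpGT47.17, in Mpb-gata1-1. In Mpb-gata1-2 these were MpGH16.17, MpExpansin32 and MpGT47.17, which followed each other at 12.7, 11.6 and 11.4 TPM. In BoGa they were MpGT8.5 and MpExpansin32, MpGT77.1 and MpExpansin16, and MpGH19.10 and MpGT47.17.

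The expansin family was taken whole by name to place the 3 expansins among their relatives. It has 37 genes in the tables, of which 28 were tested and 9 were not, 3 of them without a read and none above 0.200 CPM. MpExpansin15 was among the tested genes, but none of its reads were unique to it, so its level is uncertain. For the mean of both mutants against BoGa, 7 expansins rose and 3 fell (22.7% and 26.1% of all genes), and the median log2 change was 0.11, beside -0.02 over all tested genes. Without the 3 genes picked for this contrast, 5 rose and 2 fell of 25. BoGa replicate 3 stood apart from the other BoGa libraries (chi-square per degree of freedom 43.2 and 26.7, against 8.28 to 18.0 for the other pairs within a group), and without it 12 of the 28 rose and 3 fell. When each library was left out in turn, 8 to 15 expansins passed, both directions together. Outside the 3, the smallest p-values were those of MpExpansin13, MpExpansin14 and MpExpansin17. MpExpansin14 rose, with 9.50 ± 2.20 CPM in Mpb-gata1-1, 10.6 ± 0.789 CPM in Mpb-gata1-2 and 6.74 ± 0.641 CPM in BoGa (log2 0.57 ± 0.13, adjusted p = 0.00514, edgeR). MpExpansin17 rose in the mean, with 4.83 ± 0.314, 3.52 ± 1.04 and 2.31 ± 0.579 CPM in the same groups (log2 0.84 ± 0.21, adjusted p = 0.00654, edgeR). Against BoGa it passed in Mpb-gata1-1 (adjusted p = 0.00360) but not in Mpb-gata1-2 (adjusted p = 0.052, edgeR). MpExpansin13 fell in the mean, with 4.36 ± 0.120 CPM in Mpb-gata1-1, 2.33 ± 0.322 CPM in Mpb-gata1-2 and 4.86 ± 0.926 CPM in BoGa (log2 -0.60 ± 0.14, adjusted p = 0.00425, edgeR), although Mpb-gata1-1 did not pass against BoGa (adjusted p = 0.440, edgeR) and Mpb-gata1-2 did (adjusted p = 0.000548).

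Between the mutants the expansins lay mostly to one side. Of 28 tested, 11 were higher in Mpb-gata1-1 and 1 was lower, beside 16.0% and 14.9% of all genes, and the median log2 difference was 0.39, beside -0.00 over all genes. Of all 28, 22 had a fitted difference above 0. Without the 3 chosen expansins the counts were 10 and 1 of 25, with a median of 0.40. The 11 include MpExpansin4 with its 0.80 and MpExpansin13 with 0.89 ± 0.17 (adjusted p = 0.00237, edgeR). MpExpansin16 and MpExpansin32, with 0.21 and -0.10, were not among the 12 that passed. Against BoGa, 13 expansins rose and 3 fell in Mpb-gata1-1 (23.0% of all genes in each direction), and 2 rose and 5 fell in Mpb-gata1-2 (21.7% and 24.7%). Without the 3 chosen expansins, 11 rose and 2 fell of 25 in Mpb-gata1-1, and 1 rose and 4 fell of 25 in Mpb-gata1-2. These 2 comparisons share the BoGa libraries. The counts between the mutants ranged over 11 to 13 of 28 when each library was left out.

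**Figure D3:**
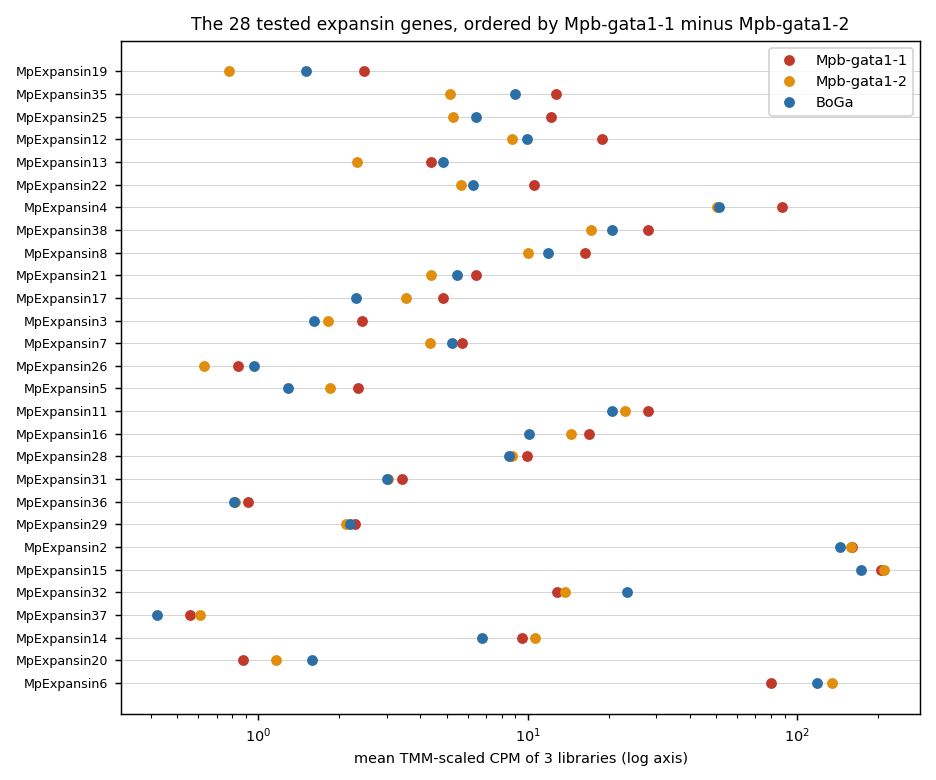
Mean TMM-scaled CPM of 3 libraries (horizontal log axis) for the 28 tested expansin genes in Mpb-gata1-1, Mpb-gata1-2 and BoGa, ordered by the fitted log2 difference Mpb-gata1-1 minus Mpb-gata1-2 from the top. In 22 of the 28 that difference is above 0, and MpExpansin32 is a gene of the lower rows with BoGa to the right of both mutants.

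Around MpExpansin4 the chromosome holds other expansins. MpExpansin3 lies 10324 bp before it and had 2.44 ± 0.343 CPM in Mpb-gata1-1, 1.81 ± 0.410 CPM in Mpb-gata1-2 and 1.61 ± 0.545 CPM in BoGa, a log2 change of the mean of 0.38 ± 0.23 that did not pass (adjusted p = 0.191, edgeR). MpExpansin5 lies 7849 bp after it and rose in the mean by 0.71 ± 0.26 (2.35 ± 0.926, 1.85 ± 0.314 and 1.29 ± 0.250 CPM, adjusted p = 0.0434, edgeR). For MpExpansin5, Mpb-gata1-1 passed against BoGa (adjusted p = 0.0280) and Mpb-gata1-2 did not (adjusted p = 0.173, edgeR). Between the mutants MpExpansin3 and MpExpansin5 had differences of 0.43 ± 0.25 and 0.37 ± 0.28, which did not pass (adjusted p = 0.227 and 0.355, edgeR). On one side of MpExpansin32, 74680 bp away, the unnamed gene Mp4g06550 had 26.6 ± 1.51 CPM in Mpb-gata1-1, 26.2 ± 0.869 CPM in Mpb-gata1-2 and 46.4 ± 5.98 CPM in BoGa (log2 -0.81 ± 0.07, adjusted p = 1.49e-05, edgeR), with 77.5% of its reads unique. The nearer gene on the other side, Mp4g06570 at 33552 bp, did not pass (log2 0.01 ± 0.08, adjusted p = 0.906, edgeR), nor did Mp4g06540 (-0.18 ± 0.10, adjusted p = 0.179), while Mp4g06580 fell by 0.25 on the log2 scale (SE 0.08, adjusted p = 0.0287, edgeR). Against BoGa, Mp4g06580 passed in Mpb-gata1-2 (adjusted p = 0.00866) but not in Mpb-gata1-1 (adjusted p = 0.336, edgeR). The nearest tested gene to MpExpansin16, Mp3g03980, did not pass (log2 0.20 ± 0.15, adjusted p = 0.294, edgeR), and the next, Mp3g03990, fell by 0.32 (SE 0.05, adjusted p = 0.000332, edgeR).

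MpGH16.17 sits in a run of GH16 genes on chromosome 3, with MpGH16.16 before it and MpGH16.18 to MpGH16.21 after it. MpGH16.16 lies 2756 bp away on the opposite strand and rose as well. It had 4.16 ± 1.59 CPM in Mpb-gata1-1, 8.31 ± 1.99 CPM in Mpb-gata1-2 and 1.26 ± 0.435 CPM in BoGa, a log2 change of the mean of 2.21 ± 0.30 (adjusted p = 0.000213, edgeR). Like MpGH16.17 it was lower in Mpb-gata1-1 than in Mpb-gata1-2, by -1.02 ± 0.28 (adjusted p = 0.0217, edgeR). The unnamed gene before it, Mp3g10380, rose by 4.38 ± 0.28 (5.79 ± 0.953, 3.28 ± 0.813 and 0.207 ± 0.0799 CPM, adjusted p = 1.60e-06, edgeR), with the mutants in the other order (0.81 ± 0.21, adjusted p = 0.0126, edgeR). On the other side, MpGH16.18 had 19 reads in Mpb-gata1-1, 64 reads in Mpb-gata1-2 and 29 reads in BoGa. It did not pass for the mean of both mutants (0.26 ± 0.42, adjusted p = 0.641, edgeR) but rose in Mpb-gata1-2 against BoGa (1.16 ± 0.42, adjusted p = 0.0441, edgeR), and it was lower in Mpb-gata1-1 than in Mpb-gata1-2 (-1.81 ± 0.46, adjusted p = 0.0126, edgeR). MpGH16.19 passed neither for the mean (0.04 ± 0.20, adjusted p = 0.873) nor between the mutants (-0.30 ± 0.23, adjusted p = 0.345, edgeR). All the reads of these 5 genes, MpGH16.17 included, were unique to them.

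**Figure D4:**
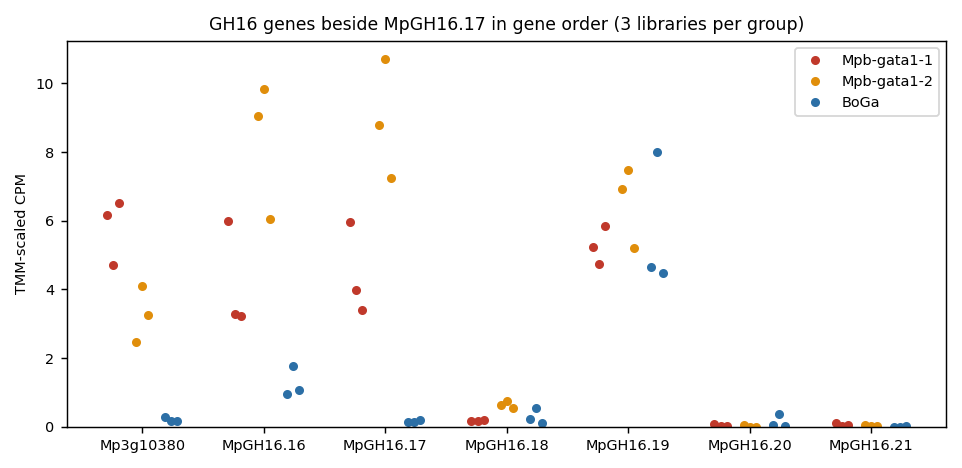
TMM-scaled CPM in each library (points) of MpGH16.17 and the genes beside it in gene order on chromosome 3, for Mpb-gata1-1, Mpb-gata1-2 and BoGa. Mp3g10380, MpGH16.16 and MpGH16.17 are lowest in BoGa, while MpGH16.19 overlaps in all groups and MpGH16.20 and MpGH16.21 are near 0.

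The GH16 family has 42 genes, of which 33 were tested. For the mean of both mutants 4 rose and 6 fell (22.7% and 26.1% of all genes), with a median log2 change of 0.09. MpGH16.17, picked for this contrast, is 1 of the 4, and without it 3 rose and 6 fell of 32. In Mpb-gata1-1 against BoGa 15 rose and 4 fell (23.0% of all genes in each direction), and in Mpb-gata1-2 against BoGa 5 rose and 11 fell (21.7% and 24.7% of all genes). Without MpGH16.17 these were 14 and 4 of 32 in Mpb-gata1-1, and 4 and 11 of 32 in Mpb-gata1-2. Between the mutants 15 were higher in Mpb-gata1-1 and 6 lower (16.0% and 14.9% of all genes), with a median of 0.46. MpGH16.17 is also 1 of the 6 that were lower in Mpb-gata1-1. Of the other genes, MpGH16.29 rose by 4.84 ± 0.34, on 407 reads in Mpb-gata1-1, 107 reads in Mpb-gata1-2 and 7 reads in BoGa (adjusted p = 2.84e-06, edgeR), and differed between the mutants by 1.90 ± 0.23. MpGH16.27 fell by 3.70 on the log2 scale (SE 0.30, adjusted p = 6.13e-06, edgeR), on 3, 41 and 155 reads in the same groups, and the ratio of Mpb-gata1-1 to BoGa in summed reads was 0.0190 with a 95% counting interval of 0.00387 to 0.0565. MpGH16.12, an abundant member, fell to 90.9 ± 3.75 CPM (Mpb-gata1-1) and 131 ± 6.11 CPM (Mpb-gata1-2), against 157 ± 12.3 CPM in BoGa (log2 -0.52 ± 0.06, adjusted p = 4.55e-05, edgeR).

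Of 8 GH3 genes 7 were tested, and 1 rose and 1 fell for the mean of both mutants (22.7% and 26.1% of all genes). The gene that rose was MpGH3.5, which was picked for this contrast, and without it 0 rose and 1 fell of 6. The gene that fell was MpGH3.3, with 11.2 ± 0.735 CPM in Mpb-gata1-1, 10.5 ± 0.261 CPM in Mpb-gata1-2 and 13.9 ± 3.30 CPM in BoGa (log2 -0.36 ± 0.13, adjusted p = 0.0378, edgeR). Its BoGa libraries ran from 10.4 to 16.9 CPM and overlapped with both mutants. Mpb-gata1-1 did not pass against BoGa for MpGH3.3 (adjusted p = 0.112, edgeR) and Mpb-gata1-2 did (adjusted p = 0.0446). MpGH3.1 had 192 ± 3.41, 180 ± 10.8 and 206 ± 31.0 CPM in the same groups and did not pass (adjusted p = 0.149), and MpGH3.4 did not pass in the mean (0.04 ± 0.06, adjusted p = 0.537) but was higher in Mpb-gata1-1 than in Mpb-gata1-2 (0.46 ± 0.06, adjusted p = 0.000400, all by edgeR). MpGH3.2, singled out after its values were seen, was read only in Mpb-gata1-2, with 0 reads in Mpb-gata1-1, 142 in Mpb-gata1-2 and 0 in BoGa. With a floor of 3 reads over the group this is at least 49.6-fold higher than the Mpb-gata1-1 level and at least 48.6-fold higher than the BoGa level. The gene 486 bp after MpGH3.5, Mp5g02890, fell to 272 ± 1.79 CPM (Mpb-gata1-1) and 306 ± 13.0 CPM (Mpb-gata1-2), against 468 ± 90.6 CPM in BoGa (log2 -0.70 ± 0.10, adjusted p = 0.000283, edgeR), opposite to MpGH3.5, and Mp5g02900 after it did not pass (-0.43 ± 0.21, adjusted p = 0.121, edgeR).

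In the GH19 family most tested genes fell. Of 15 genes 12 were tested, 1 rose and 7 fell for the mean of both mutants, MpGH19.10 among the 7 (22.7% and 26.1% of all genes), and the median log2 change was -0.58. Without MpGH19.10 the counts were 1 and 6 of 11, with a median of -0.17. MpGH19.9 fell to 10.3 ± 1.41 CPM (Mpb-gata1-1) and 25.3 ± 1.47 CPM (Mpb-gata1-2), against 42.3 ± 3.37 CPM in BoGa (log2 -1.38 ± 0.08, adjusted p = 8.08e-07, edgeR). MpGH19.8 fell to 10.1 ± 1.05 and 16.4 ± 2.96 CPM in Mpb-gata1-1 and Mpb-gata1-2, against 36.2 ± 1.09 CPM in BoGa (log2 -1.49 ± 0.10, adjusted p = 2.11e-06, edgeR). MpGH19.7 fell to 18.3 ± 1.71 and 13.5 ± 0.839 CPM, against 33.6 ± 4.17 CPM (log2 -1.09 ± 0.08, adjusted p = 5.24e-06, edgeR). The order of the mutants was not shared: MpGH19.9 and MpGH19.8 were lower in Mpb-gata1-1 by -1.29 ± 0.10 and -0.70 ± 0.12, whereas MpGH19.10 and MpGH19.7 were higher in it. Beside MpGH19.10, the unnamed Mp5g02100, 14169 bp away, fell by 2.97 on the log2 scale (SE 0.18, adjusted p = 9.89e-07, edgeR), on 23 reads in Mpb-gata1-1, 455 reads in Mpb-gata1-2 and 803 reads in BoGa. There Mpb-gata1-1 was the lower of the mutants (-4.34 ± 0.27, adjusted p = 1.04e-06, edgeR), opposite to MpGH19.10. Mp5g02090 beyond it fell by 0.99 on the log2 scale (SE 0.10, adjusted p = 2.55e-05, edgeR), with 85.3% of its reads unique.

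Over all 107 tested glycoside hydrolases of 125, 19 rose and 40 fell for the mean of both mutants (17.8% and 37.4%, beside 22.7% and 26.1% of all genes), with a median log2 change of -0.04. Without the 3 genes picked for this contrast 17 rose and 39 fell of 104, with a median of -0.05. The excess of falls was not shared by the mutants. In Mpb-gata1-1 against BoGa 33 rose and 29 fell, beside 23.0% of all genes in each direction. In Mpb-gata1-2 against BoGa 23 rose and 44 fell, beside 21.7% and 24.7% of all genes. Without the 3 picked genes these were 31 and 28 of 104 in Mpb-gata1-1, and 21 and 43 of 104 in Mpb-gata1-2. Between the mutants 41 were higher and 29 lower in Mpb-gata1-1 (38.3% and 27.1%, beside 16.0% and 14.9%). Of the 18 not tested, 1 had no reads and none was above 0.565 CPM. Outside families GH16, GH3 and GH19 the smallest p-values were those of MpGH1.2 and MpGH17.11. MpGH1.2, of a family of beta-glucosidases, rose to 68.2 ± 3.67 CPM (Mpb-gata1-1) and 79.6 ± 3.68 CPM (Mpb-gata1-2), against 46.7 ± 1.48 CPM in BoGa (log2 0.66 ± 0.05, adjusted p = 6.65e-06, edgeR), with 86.2% of its reads unique. MpGH17.11, of a family of beta-1,3-glucanases, fell to 0.679 ± 0.0525 and 1.88 ± 0.307 CPM in Mpb-gata1-1 and Mpb-gata1-2, against 3.63 ± 0.290 CPM in BoGa (log2 -1.68 ± 0.14, adjusted p = 7.84e-06, edgeR).

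Of the glycosyltransferases more rose than fell. Of 84 genes 79 were tested, 25 rose and 6 fell for the mean of both mutants (31.6% and 7.59%, beside 22.7% and 26.1% of all genes), and the median log2 change was 0.11, beside -0.02 over all genes. Without the 3 genes picked for this contrast 22 rose and 6 fell of 76, with a median of 0.10. Without BoGa replicate 2, 16 rose and 5 fell of the 79. By family, 6 rose and 2 fell of 16 in GT47, 5 rose and 1 fell of 11 tested in GT8, and 2 rose of 5 in GT77. Each family count holds 1 picked gene. Without it 5 rose and 2 fell of 15 in GT47, 4 rose and 1 fell of 10 in GT8, and 1 rose of 4 in GT77. MpGT47.1 was among those that fell, but none of its reads were unique to it, so its level is uncertain. Between the mutants 11 were higher and 13 lower in Mpb-gata1-1, which is 13.9% and 16.5%, near the 16.0% and 14.9% of all genes, and the median was 0.02.

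In GT47, MpGT47.4 rose to 63.8 ± 1.86 CPM (Mpb-gata1-1) and 65.3 ± 2.63 CPM (Mpb-gata1-2), against 50.6 ± 1.61 CPM in BoGa (log2 0.35 ± 0.05, adjusted p = 0.000171, edgeR). MpGT47.13 and MpGT47.6 rose by 0.42 ± 0.06 (adjusted p = 0.000194) and 0.26 ± 0.07 (adjusted p = 0.00993, edgeR). In GT8, MpGT8.2 rose to 39.9 ± 3.01 and 38.6 ± 1.82 CPM in Mpb-gata1-1 and Mpb-gata1-2, against 30.8 ± 0.917 CPM in BoGa (log2 0.35 ± 0.06, adjusted p = 0.000736, edgeR). MpGT8.4 rose by 0.26 ± 0.07 (adjusted p = 0.0111), and MpGT8.6 fell by 0.28 on the log2 scale (SE 0.06, adjusted p = 0.00512, edgeR). Against BoGa, MpGT8.6 passed in Mpb-gata1-2 (adjusted p = 0.00216) but not in Mpb-gata1-1 (adjusted p = 0.0878, edgeR). In GT77, MpGT77.2 rose to 95.2 ± 4.52 and 86.1 ± 1.11 CPM in Mpb-gata1-1 and Mpb-gata1-2, against 72.5 ± 2.11 CPM in BoGa (log2 0.32 ± 0.05, adjusted p = 0.000249, edgeR), while MpGT77.5 and MpGT77.3, with 0.11 ± 0.06 and 0.09 ± 0.06, did not pass (adjusted p = 0.187 and 0.279, edgeR).

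**Figure D5:**
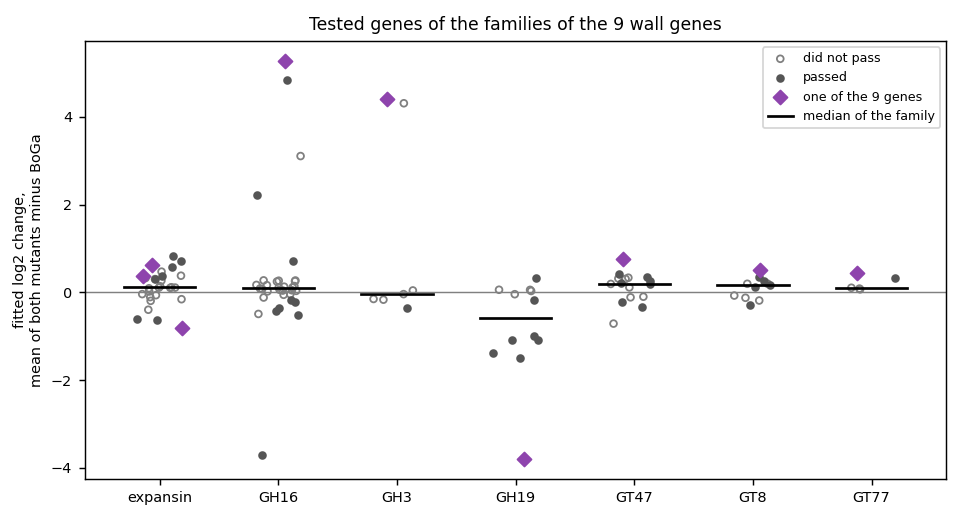
Fitted log2 change of the mean of both mutants minus BoGa (vertical axis) for every tested gene of the 7 families of the wall genes, with filled points for genes that passed, open points for those that did not, diamonds for the 9 genes and bars for the family medians. The median is -0.58 in GH19 with MpGH19.10 and -0.17 without it. It is 0.20 in GT47 with or without MpGT47.17, and in GT8 it is 0.17 with MpGT8.5 and 0.15 without it. The diamonds were chosen with this contrast known.

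The neighbours of the glycosyltransferases did not share one direction. Mp7g03570, which overlaps MpGT47.17, fell to 2.28 ± 0.384 CPM (Mpb-gata1-1) and 2.07 ± 0.241 CPM (Mpb-gata1-2), against 4.17 ± 0.539 CPM in BoGa (log2 -0.94 ± 0.14, adjusted p = 0.000352, edgeR), and Mp7g03590 on the other side fell by 0.18 on the log2 scale (SE 0.06, adjusted p = 0.0208, edgeR). Against BoGa, Mp7g03590 passed in Mpb-gata1-2 (adjusted p = 0.0127) but not in Mpb-gata1-1 (adjusted p = 0.137, edgeR). MpGT8.5 has neighbours that rose: Mp2g12510 by 1.48 ± 0.31, Mp2g12530 by 0.35 ± 0.05 and Mp2g12540 by 0.25 ± 0.04 (adjusted p = 0.00294, 0.000148 and 0.000728, edgeR). Beside MpGT77.1, Mp1g13580 rose by 2.17 ± 0.34 (0.776 ± 0.128, 1.24 ± 0.00503 and 0.209 ± 0.153 CPM, adjusted p = 0.000456, edgeR) with 77.7% of its reads unique, while Mp1g13550 (adjusted p = 0.105) and Mp1g13540 (adjusted p = 0.103) did not pass. MpGATA4 lies 108618 bp from MpGT47.17 with 8 genes between them.

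Likeness of pattern was measured as the root mean square difference in log2 CPM, centred on the mean of the 9 libraries, among named genes with a mean log2 CPM of at least 1. The closest to MpGH16.17 were MpLEA-like43 and MpLEA-like9 (0.27 and 0.35), and the closest to MpGH3.5 were MpLEAL6 and MpLEA-like36 (0.23 and 0.27), all 4 named for late embryogenesis abundant proteins. MpLEA-like9, for example, had 33.9 ± 7.76 CPM in Mpb-gata1-1, 58.3 ± 6.89 CPM in Mpb-gata1-2 and 1.92 ± 0.719 CPM in BoGa. For MpExpansin4 the closest were the metacaspase gene MpMCA-IIc and the peroxidase gene MpPOD115 (0.10 each), with MpMCA-IIc at 44.9 ± 1.62, 25.7 ± 2.39 and 23.5 ± 2.6 CPM in Mpb-gata1-1, Mpb-gata1-2 and BoGa.

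The tubulin gene MpTUB4 and the transporter gene MpABCC3 (0.13 each) were closest to MpExpansin16, and MpZIP2 and MpIDDL2 (0.14 each) to MpExpansin32. MpGT47.17 was closest to MpH3.3a, a histone variant gene, and to MpGATA4 (0.07 and 0.08). MpGT8.5 was closest to MpPPR_31 and MpPPR_3 (0.04 and 0.05), genes of pentatricopeptide repeat proteins, and MpGT77.1 to MpTPS4 and MpPAS3 (0.06 each). The nearest genes to MpGH19.10, the lipoxygenase gene MpLOX16 and the receptor kinase gene MpRLK-Pelle_WAK1, stood at 0.90 and 0.93. Such distances can grow with the size of a gene's own pattern, whose root mean square was 2.03 for MpGH19.10. That size was 2.35 for MpGH16.17 and 1.95 for MpGH3.5, but only 0.36 for MpExpansin16 and 0.42 for MpExpansin32. These values describe 9 libraries in 3 groups, in which genes that separate the groups alike come out close.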

How the data were processed

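RNA sequencing of 9 libraries was analysed, 3 each of Mpb-gata1-1, Mpb-gata1-2 and BoGa, with groups and replicate numbers from the labels. Per the labels' protocols, a TruSeq stranded mRNA kit was used. The deposited tables hold, per the file headers, total and unique gene read counts that were not normalized, and TPM and RPKM values computed by the authors from the length of each gene region. Positions are those of the tables. Not given in the sources used here are the aligner, the build, the annotation version and whether counting was by strand.

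Gene symbols were looked up by locus in the RefSeq gene table of MpTak2_v7.1, where 17641 of 20574 genes (85.7%) matched, and 81.4% of these had a length within 20 bp of the tables'. Total gene reads were tested with edgeR 4.0.16 in R 4.3.3: filterByExpr by group (14667 genes kept, 5907 not), TMM scaling, and the robust quasi-likelihood test with 1 term per group over all 9 libraries, with Benjamini-Hochberg adjustment over all tested genes and a threshold of 0.05. Values are CPM with SD and fitted log2 changes with SE. The biological coefficient of variation was 9.08%. The procedure was tested on simulated data. No 2 libraries of a group agreed within sampling noise (chi-square per degree of freedom at least 8.28 over 9 pairs). Intervals on counts are exact binomial at 95%, and they and the floor of 3 reads cover counting error only.

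The 9 genes, the families and the markers were chosen with earlier results of these data known. Named relatives are, by unadjusted p for the mean of both mutants against BoGa, up to 3 per family of a member and up to 2 per other wall list, together with the 2 genes on each side of each member and the 2 most alike. The marker names MpRSL3, MpBNB and MpFGMYB had no match. Names starting with MpXTH or MpPME were searched and matched no gene symbol. The search for cellulose synthases and their relatives, by names starting with MpCESA or MpCSL, gave the 10 MpCSLD genes. Alternatives were RLE and upper-quartile scaling, DESeq2 1.42.0, limma 3.58.1 on log2(TPM + 1) and log2(RPKM + 1), other filters, unique reads, a replicate block, fewer groups in the fit, each library left out in turn, and a covariate for the V level.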

Additional observations from a re-analysis of the deposited data

Results flagged for a closer look

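Several of the wall genes differed between the mutants by the test of that difference itself (edgeR quasi-likelihood test, adjusted p under 0.05), a test that 30.9% of all genes passed. Values are log2 differences, Mpb-gata1-1 minus Mpb-gata1-2. Among the 9 genes these were 0.80 for MpExpansin4, -1.02 for MpGH16.17, -0.60 for MpGH3.5, 1.95 for MpGH19.10 and -0.29 for MpGT77.1. Among the hydrolases named beside them they were 1.90 for MpGH16.29, -3.70 for MpGH16.27, -0.53 for MpGH16.12, 0.46 for MpGH3.4, -1.29 for MpGH19.9, -0.70 for MpGH19.8, 0.44 for MpGH19.7, -0.22 for MpGH1.2 and -1.48 for MpGH17.11. MpExpansin13 differed by 0.89, MpGT47.13 by 0.21, MpCSLD10 by 0.23 and MpCSLD6 by 0.52. The V level was 0.0206 ± 0.00419 for Mpb-gata1-1 and 0.998 ± 0.0456 for Mpb-gata1-2 (SD, n = 3 each), so sex and allele cannot be told apart in these differences.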

How the results depend on the processing

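The counts of called genes, both directions together, over all genes, the 3 wall lists and the 9 genes stayed within 1.5 times of those reported under every alternative run. The 5 calls between the mutants among the 9 genes numbered 5 in each. With limma on log2(TPM + 1), the split of genes higher and lower for the mean of both mutants was 4582 and 2545, against 3330 and 3824 in the report, and was 27 and 29 for glycoside hydrolases and 38 and 3 for glycosyltransferases. With log2(RPKM + 1) it was 3970 and 3049 over all genes. The log2 difference of MpGT8.5 between the mutants changed sign to 0.021 with upper-quartile scaling and 0.0040 with limma on RPKM, and ran over -0.046 to 0.049 when single libraries were left out. That of MpExpansin32 ran over -0.19 to 0.042, above 0 without Mpb-gata1-2 replicate 3, and the cause was not tested. On the limma scales the changes of low genes were smaller by construction of the pseudocount of 1, for MpGH3.5 down to 0.86 for the mean of both mutants. Replicate numbers did not pair the samples: same-numbered libraries correlated by -0.12 to 0.16, and 1 of 9 pairs was over 0.1. With a replicate block, 6660 genes were called for the mean of both mutants, with 13 expansins, 57 glycoside hydrolases and 30 glycosyltransferases, and 1 library correlated best with its own number. With the V level as a covariate, 13 expansins, 62 glycoside hydrolases and 37 glycosyltransferases were called. The V covariate was fitted for the mean of both mutants only, and for that contrast a fit of only the groups compared is the same fit. Depth limits MpGH16.17 and MpGH3.5 in BoGa, with 16 and 20 reads, and MpGH19.10 in Mpb-gata1-2, with 28.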

Other observations

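Other wall gene lists, not described so far, were counted in the same fit. Of 22 tested GH17 genes, a family of beta-1,3-glucanases taken as a list after the values were seen, 1 rose and 14 fell for the mean of both mutants against BoGa, with a median log2 change of -0.28, beside 22.7% higher and 26.1% lower over all genes. All 10 cellulose synthase-like MpCSLD genes were tested, of a family known in flowering plants for tip-growing cells. For the mean of both mutants 3 rose and 1 fell, beside 22.7% and 26.1% of all genes. In Mpb-gata1-1 against BoGa 4 rose and 1 fell, beside 23.0% of all genes in each direction. In Mpb-gata1-2 against BoGa 2 rose and 3 fell, beside 21.7% and 24.7% of all genes. MpCSLD10 rose to 162 ± 1.74 CPM (Mpb-gata1-1) and 138 ± 3.02 CPM (Mpb-gata1-2), against 107 ± 8.53 CPM in BoGa (log2 0.48 ± 0.05, adjusted p = 4.72e-05, edgeR). MpCSLD6 fell to 6.10 ± 0.698 and 4.24 ± 0.202 CPM, against 7.60 ± 0.498 CPM (log2 -0.58 ± 0.10, adjusted p = 0.000624, edgeR).

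Of 15 tested carbohydrate esterase genes, 4 rose and 3 fell (beside 22.7% and 26.1% of all genes), shares near those of all genes. In family CE8, the pectin methylesterases, MpCE8.1 rose to 34.2 ± 0.894 CPM (Mpb-gata1-1) and 36.1 ± 1.05 CPM (Mpb-gata1-2), against 23.9 ± 1.19 CPM in BoGa (log2 0.56 ± 0.05, adjusted p = 1.61e-05, edgeR). MpCE8.14 fell to 5.79 ± 0.817 and 5.54 ± 0.363 CPM, against 15.5 ± 3.25 CPM (log2 -1.45 ± 0.13, adjusted p = 1.24e-05, edgeR). Of 4 tested PL1 pectate lyase genes, MpPL1.4 rose by 0.27 ± 0.06 (adjusted p = 0.00292, edgeR), and MpPL1.3 had a change of -0.32 ± 0.16 that did not pass (adjusted p = 0.129, edgeR). Against BoGa, MpPL1.3 was lower in Mpb-gata1-1 (-0.56 ± 0.19, adjusted p = 0.0368) and did not pass in Mpb-gata1-2 (-0.09 ± 0.19, adjusted p = 0.732, edgeR). Of GT37, the family of xyloglucan fucosyltransferases, MpGT37.1 fell to 0.734 ± 0.0423 and 0.404 ± 0.190 CPM, against 2.5 ± 0.842 CPM (log2 -2.16 ± 0.27, adjusted p = 0.000117, edgeR), and MpGT37.7 rose by 0.42 ± 0.05 (adjusted p = 0.000144, edgeR). MpGH16.5, singled out after its values were seen, had 1 read in Mpb-gata1-1, 99 reads in Mpb-gata1-2 and 1 read in BoGa, a ratio of Mpb-gata1-2 to Mpb-gata1-1 of 104 with a 95% counting interval of 18.2 to 4141.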
